A study of Mus musculus with 12 samples.

Results

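The genes described here are 9 markers of the type 1 conventional dendritic cell: Xcr1, Clec9a, Cadm1, Itgae, Wdfy4, Cd8a, Snx22, Naaa and Cd36. They were chosen by symbol, as genes known to mark this cell in mice, and all 9 were among the 28188 gene symbols of the deposited count table. The libraries were made from poly(A)-selected RNA of bulk dendritic cells and B cells isolated from the spleens of mice aged 12 weeks. There were 4 groups of 3 libraries: NOD.Idd2 dendritic cells, NOD dendritic cells, NOD.Idd2 B cells and NOD B cells. NOD mice become diabetic through spontaneous autoimmunity and served as the control, and NOD.Idd2 mice have their Idd2 diabetes locus from the B10 strain and the NOD background that all 4 groups share. No agent is named for any group. How far the B10 segment reaches, and by which markers the cells were isolated, the sources used here do not give. The comparisons ask what the locus does to expression in each cell type.

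The type 1 conventional dendritic cell is the splenic cell best known for cross-presentation, the display of antigen taken up from other cells on class I molecules to CD8 T cells. It develops under the transcription factors Irf8 and Batf3, takes up material from dying cells, and meets T cells and natural killer cells through surface receptors. The 9 markers cover these steps: Cadm1, Itgae and Cd8a encode proteins of cell contact, and Xcr1 encodes a chemokine receptor. Clec9a and Cd36 encode receptors for dying cells, Wdfy4 and Snx22 encode proteins of vesicle traffic, and Naaa encodes a lysosomal lipid amidase. In a bulk library, fewer cells of this type and less RNA per cell cannot be told apart.

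The dendritic cell libraries held 8663421 to 30337812 counts, the shallowest being NOD.Idd2 replicate 3 with 18120 detected genes, and the B cell libraries held 40344883 to 44632276. Replicates of a group always differed by more than sampling noise. Nothing in the labels says that replicates are separate animals, so the p-values speak only of the spread among these samples, which may be technical. Among B cells, the libraries numbered 3 in each strain stood apart from the others. The 10 B cell genes summed to 536 to 621 CPM in the dendritic cell libraries and to 16535 to 17343 CPM in the B cell libraries. Xist, expressed from the inactive X chromosome of females, had 1 to 4 counts in each dendritic cell library and 1564 to 2088 CPM in B cell libraries, while Ddx3y, Uty, Kdm5d and Eif2s3y of the Y chromosome were at 83.6 to 306 CPM in dendritic cells and 0 counts in B cells. Cell type and sex therefore cannot be told apart in any comparison of dendritic cells with B cells. CPM are counts scaled to a common library size by the TMM method, and errors are SD over n = 3 libraries unless given as a standard error (SE).

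The 4 promoters below are shown because they belong to Xcr1 and to Clec9a, the marker closest to it in profile across the 12 libraries, to the one marker that was higher in B cells (Cd36), and to the one marker whose window held a searched motif (Cd8a). Each runs from 250 bases before to 50 bases after a transcription start in RefSeq on GRCm38.p6, 5′ to 3′ on the gene's strand. They lie at chr9:123861980-123862279 on the minus strand for Xcr1, chr6:129408612-129408911 on the plus strand for Clec9a, chr6:71373177-71373476 on the plus strand for Cd8a and chr5:17835847-17836146 on the minus strand for Cd36. The Cd36 start lies inside the gene's GENCODE span. Capitals mark motif matches.
Xcr1: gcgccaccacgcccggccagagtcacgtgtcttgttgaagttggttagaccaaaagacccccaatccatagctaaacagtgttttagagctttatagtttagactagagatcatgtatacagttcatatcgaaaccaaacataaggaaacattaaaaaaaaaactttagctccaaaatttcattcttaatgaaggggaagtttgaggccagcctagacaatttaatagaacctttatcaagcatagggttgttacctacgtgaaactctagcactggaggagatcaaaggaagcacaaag
Clec9a: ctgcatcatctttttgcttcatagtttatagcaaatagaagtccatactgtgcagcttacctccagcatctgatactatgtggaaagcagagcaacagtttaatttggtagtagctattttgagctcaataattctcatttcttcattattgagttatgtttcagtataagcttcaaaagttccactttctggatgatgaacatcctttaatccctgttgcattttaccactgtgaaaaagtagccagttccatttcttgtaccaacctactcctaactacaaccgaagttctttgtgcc
Cd8a: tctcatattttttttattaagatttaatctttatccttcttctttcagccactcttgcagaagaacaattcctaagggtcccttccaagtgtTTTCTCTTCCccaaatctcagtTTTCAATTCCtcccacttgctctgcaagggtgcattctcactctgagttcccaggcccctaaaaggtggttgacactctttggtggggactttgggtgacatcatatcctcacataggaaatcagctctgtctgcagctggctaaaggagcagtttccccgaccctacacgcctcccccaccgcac
Cd36: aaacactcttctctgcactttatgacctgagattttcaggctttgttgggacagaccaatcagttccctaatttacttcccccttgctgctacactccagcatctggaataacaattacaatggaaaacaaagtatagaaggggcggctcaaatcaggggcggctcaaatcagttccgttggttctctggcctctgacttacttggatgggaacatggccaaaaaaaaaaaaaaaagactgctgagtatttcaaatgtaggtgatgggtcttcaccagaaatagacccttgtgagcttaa
The motifs were an AP-1 site (TGANTCA), an ETS-IRF composite element (GGAA and GAAA with any 2 bases between them) and the core of an interferon-stimulated response element (GAAA and GAAA, with any 2 bases between), each searched on both strands. The last 2 motifs differ in 1 letter, so no stretch matches both at the same place, though matches of different motifs can overlap. RefSeq entries were at hand for 7 of the 9 markers, in 8 sequences, and Cadm1 and Itgae had none. Only Cd8a held a match, with 2 ETS-IRF matches on the opposite strand at bases 93 to 102 and 115 to 124 of the window. Among 32851 promoters of the same length, 2.72% held that motif, 7.81% the AP-1 site and 3.44% the response element core. A match is a string of letters and not a bound site.

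In GENCODE vM21 on GRCm38, 3 of the 9 markers lie on chromosome 9, which carries Cadm1 (ENSMUSG00000032076.19, chr9:47530173-47857637, plus strand), Snx22 (chr9:66065176-66069719, minus strand) and Xcr1 (ENSMUSG00000060509.4, chr9:123852315-123862029, minus strand). Clec9a (chr6:129408862-129424763) and Cd8a (chr6:71373427-71379173) are on chromosome 6, Naaa (chr5:92257659-92278170) and Cd36 (chr5:17781690-17888801) on chromosome 5, Itgae (chr11:73090583-73147446) on chromosome 11 and Wdfy4 (chr14:32959547-33185508) on chromosome 14. Exons of Snx22 overlap Ppib on the opposite strand, and exons of Clec9a overlap Clec1b on the same strand. Whether reads were counted by strand is not stated, so the levels of Snx22 and Clec9a are uncertain to that extent. Ppib, an abundant cyclophilin gene, was at 191 ± 3.10 CPM in NOD.Idd2 and 180 ± 5.61 in NOD dendritic cells and at 157 ± 5.30 in NOD.Idd2 and 155 ± 3.91 in NOD B cells, whereas Snx22 was near 2 CPM in B cells.

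All 9 markers were detected in every dendritic cell library, at levels that spanned a wide range per length of transcript. In NOD.Idd2 dendritic cells the mean level in CPM per kb of exon was 254 for Wdfy4, 91.1 for Naaa, 43.0 for Clec9a, 39.8 for Snx22, 32.9 for Xcr1, 23.7 for Cd8a, 20.6 for Cd36, 5.14 for Cadm1 and 2.97 for Itgae. The order was the same in NOD dendritic cells, from 271 CPM per kb for Wdfy4 to 8.43 for Cadm1 and 4.03 for Itgae. The libraries of neighbours in this order overlapped for Cd8a and Cd36 in NOD.Idd2 and for Clec9a and Snx22 in NOD, and for no other neighbours. In B cells of both strains the order began with Wdfy4 (104 CPM per kb in NOD.Idd2, 98.4 in NOD), Cd36 (52.4 in NOD.Idd2, 48.4 in NOD) and Naaa (13.1 in NOD.Idd2, 12.8 in NOD), and Clec9a, Cadm1 and Xcr1 were the lowest, at 0.0334 to 0.101. In NOD B cells these last markers overlapped, Cadm1 with both of the others in the order.

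**Figure D1:**
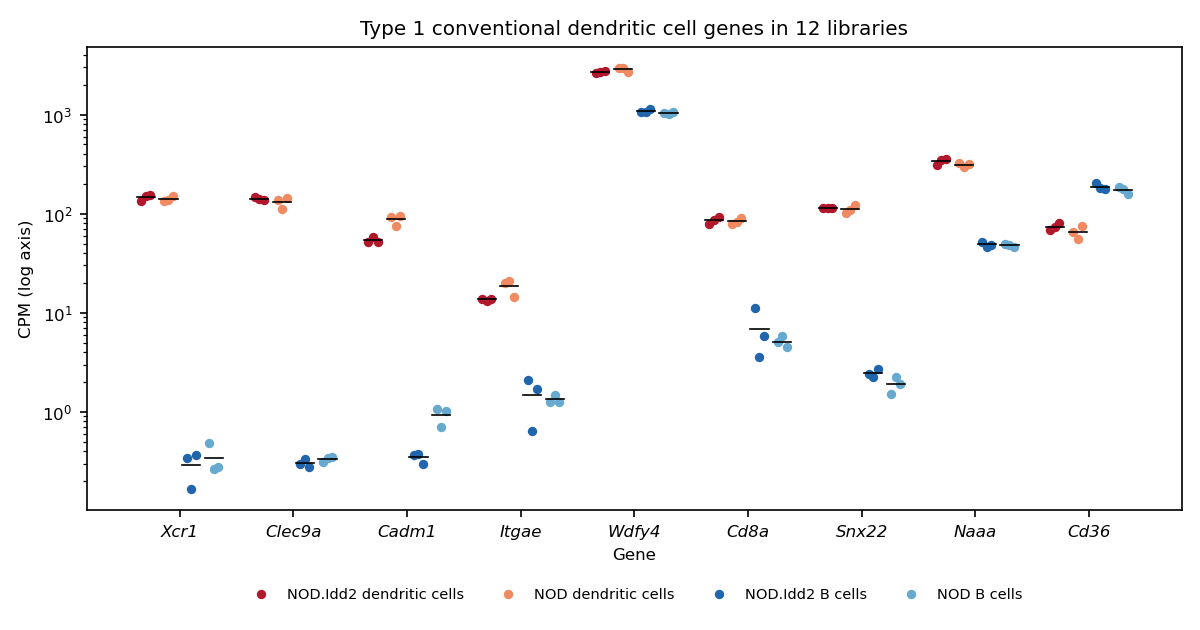
Level of each marker in CPM (log axis) in the 12 libraries, with points for libraries and a line for the group mean. Cadm1 in dendritic cells lies at 51.3 to 57.9 CPM in NOD.Idd2 and 75.4 to 95.7 in NOD, and Cd36 is the one marker whose B cell points lie above its dendritic cell points.

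Of the receptors that bring the cell together with lymphocytes, Cadm1 was the one that passed the test between the strains. Cadm1 encodes an adhesion molecule of the immunoglobulin superfamily that binds Crtam on activated lymphocytes. It was at 51.7, 57.9 and 51.3 CPM in the NOD.Idd2 dendritic cell libraries (1164, 1740 and 451 counts) and at 92.8, 75.4 and 95.7 CPM in NOD (2264, 1957 and 2482 counts). Every NOD.Idd2 library, the shallow one included, was below every NOD library. Cadm1 fell to 53.6 ± 3.75 CPM in NOD.Idd2 dendritic cells, against 88 ± 11 in NOD, a log2 fold change of -0.69 (SE 0.09, 0.619-fold). Its adjusted p was 0.00212 in edgeR's quasi-likelihood test, with the Benjamini-Hochberg method applied over all 14441 tested genes. It ranked 15th by p among the 90 genes that were lower in NOD.Idd2. It passed under all 13 alternatives that were run, leaving out each of the 6 libraries included, with log2 fold changes of -0.79 to -0.63 and adjusted p of 6.64e-21 to 0.0298.

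Xcr1, the receptor for the chemokine that CD8 T cells and natural killer cells release, did not pass. It was at 133, 152 and 155 CPM in NOD.Idd2 and 134, 136 and 152 CPM in NOD dendritic cells, and the groups overlapped (log2 0.07, SE 0.07, adjusted p = 0.783). Cd8a, which mouse dendritic cells carry as a homodimer, was at 79.4, 86.6 and 93.1 CPM in NOD.Idd2 and at 78.4, 82.3 and 90.6 CPM in NOD, again overlapping (log2 0.05, SE 0.07, adjusted p = 0.857). Itgae encodes an integrin alpha chain that pairs with the product of Itgb7 and binds E-cadherin. Its level was 13.9, 13.1 and 13.9 CPM in NOD.Idd2 dendritic cells, below all 3 NOD libraries at 19.9, 21.0 and 14.5 CPM. The groups did not overlap, but the difference did not pass over all genes (log2 -0.43, SE 0.13, adjusted p = 0.173). NOD replicate 3, at 14.5 CPM, lay close to the NOD.Idd2 libraries. Without it Itgae passed (log2 -0.58, adjusted p = 0.00508), and it also passed without a filter on low counts (adjusted p = 0.00265).

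The receptors for dying cells did not pass either. Clec9a, a C-type lectin that recognises the exposed actin of dead cells, was at 147, 141 and 137 CPM in NOD.Idd2 and 138, 112 and 144 CPM in NOD dendritic cells (log2 0.13, SE 0.08, adjusted p = 0.617). Cd36, a scavenger receptor for lipids and apoptotic cells, was at 68.2, 72.7 and 80.9 CPM in NOD.Idd2 and 64.8, 55.2 and 75.9 CPM in NOD dendritic cells (log2 0.19, SE 0.10, adjusted p = 0.554). For both genes the lowest library was NOD replicate 2, and the groups overlapped.

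Among the genes of traffic and metabolism, Wdfy4 encodes a BEACH domain protein that mouse type 1 cells need for cross-presentation of cell-borne antigen. It was the most abundant marker, at 2618, 2671 and 2751 CPM in NOD.Idd2 and 2951, 2938 and 2706 CPM in NOD dendritic cells (log2 -0.08, SE 0.06, adjusted p = 0.666). The sorting nexin gene Snx22 was at 115 CPM in all 3 NOD.Idd2 libraries and at 102, 108 and 121 CPM in NOD (log2 0.07, SE 0.06, adjusted p = 0.726). Naaa, which encodes the acid amidase that degrades palmitoylethanolamide, was at 313, 350 and 354 CPM in NOD.Idd2 and 321, 297 and 320 CPM in NOD (log2 0.13, SE 0.06, adjusted p = 0.436). All 3 genes overlapped between the strains.

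Over the 9 markers, 1 passed in dendritic cells and it was lower in NOD.Idd2, where 1.29% of all tested genes passed and 0.623% passed as lower. At an unadjusted p under 0.05 there were 3 markers (Cadm1, Itgae and Naaa), against 11.3% of all genes. The libraries did not overlap between strains for 2 of the 9, both lower in NOD.Idd2, against 16.5% of all genes without overlap and 9.41% without overlap and lower. The median log2 fold change was 0.07 over the markers and 0.00 over all genes. Summed over the 9 markers, which Wdfy4 dominates, the level was 3539 to 3751 CPM in NOD.Idd2 and 3719 to 3903 CPM in NOD dendritic cells, with overlap.

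**Figure D2:**
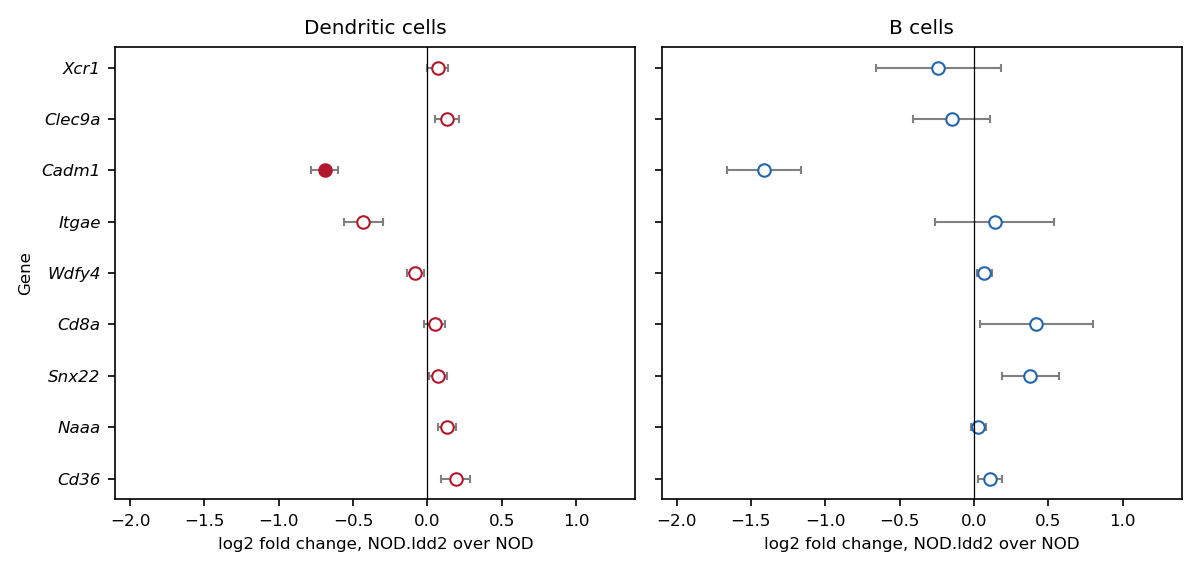
Log2 fold change of each marker, NOD.Idd2 over NOD, in dendritic cells (left) and B cells (right), with bars of 1 SE; filled points passed an adjusted p of 0.05. Cadm1 in dendritic cells (-0.69) is the only filled point, and Cadm1 is also the farthest from 0 in B cells (-1.41), where the bars of low markers such as Xcr1 (SE 0.42) are wide.

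Counts of the other markers relative to Xcr1 within each library do not depend on library scaling. Per 100 Xcr1 counts, Cadm1 had 38.9, 38.2 and 33.1 counts in NOD.Idd2 dendritic cells and 69.0, 55.5 and 63.0 in NOD, with no overlap. Per 100 Xcr1 counts Itgae had 10.4, 8.61 and 8.96 counts in NOD.Idd2 and 14.8, 15.4 and 9.55 in NOD, which overlapped. Cd8a had 59.0 ± 1.66 counts per 100 of Xcr1 in NOD.Idd2 and 59.5 ± 1.11 in NOD. Clec9a (97.1 ± 11.4 in NOD.Idd2, 93.4 ± 10.5 in NOD), Snx22 (79.0 ± 6.60 in NOD.Idd2, 78.5 ± 2.22 in NOD) and Naaa (232 ± 3.06 in NOD.Idd2, 223 ± 14.6 in NOD) also overlapped, as did Cd36 (50.5 ± 2.31 in NOD.Idd2, 46.3 ± 4.99 in NOD) and Wdfy4 (1836 ± 115 in NOD.Idd2, 2046 ± 228 in NOD). Cadm1 was thus the only one of the 8 whose ratio to Xcr1 did not overlap between the strains. The share of all genes without overlap in this ratio was not computed. In CPM it was 16.5%, so a count of 1 among 8 does not by itself set Cadm1 apart. These ratios are a description, with no test.

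**Figure D3:**
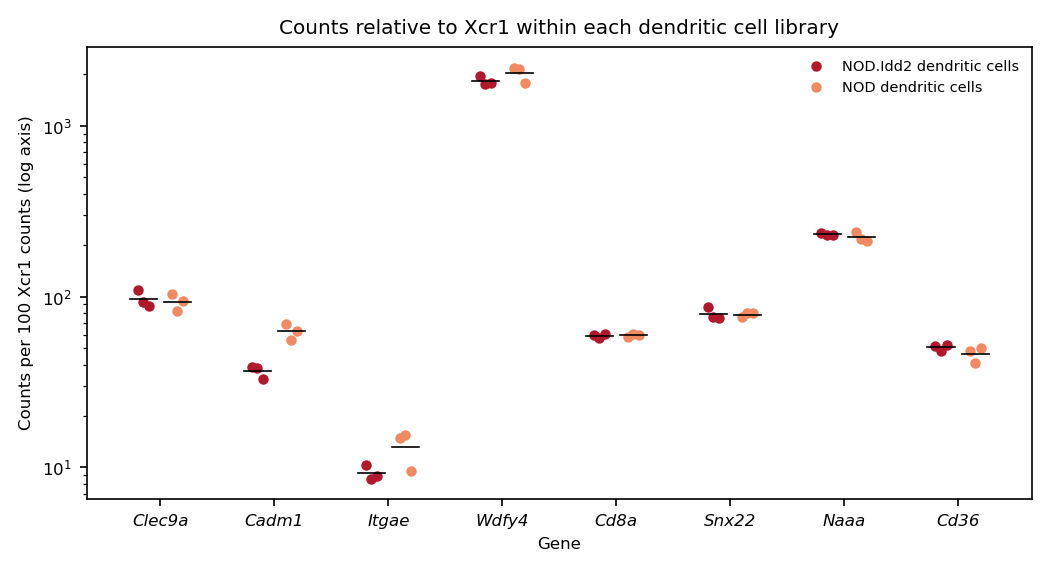
Counts of 8 markers per 100 Xcr1 counts in each dendritic cell library (log axis), with a line at the group mean. Only the Cadm1 points separate, at 33.1 to 38.9 in NOD.Idd2 and 55.5 to 69.0 in NOD.

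Markers of other cells in the dendritic cell libraries were summed beside the Cadm1 result. The 16 genes of the type 2 conventional dendritic cell summed to 4298 to 4419 CPM in NOD.Idd2 and 3997 to 4261 CPM in NOD, without overlap. The 9 monocyte and neutrophil genes summed to 387 to 404 CPM in NOD.Idd2 and 214 to 342 CPM in NOD, also without overlap. Most of that sum was Ccr2, a chemokine receptor gene that stands on both lists (360 ± 4.97 CPM in NOD.Idd2, 247 ± 57.6 in NOD). Of the 7 monocyte and neutrophil genes tested 0 passed by edgeR's test or DESeq2 and 1 by limma-voom. At an unadjusted p under 0.05 there was 1, against 11.3% of all genes. Red pulp macrophage genes (746 to 774 CPM in NOD.Idd2, 670 to 758 in NOD), T cell genes (67.1 to 75 CPM in NOD.Idd2, 58.4 to 74.5 in NOD) and natural killer cell genes (191 to 205 in NOD.Idd2, 189 to 215 in NOD) overlapped. So did plasmacytoid dendritic cell genes (427 to 476 in NOD.Idd2, 358 to 443 in NOD), B cell genes (536 to 585 in NOD.Idd2, 573 to 621 in NOD) and platelet genes (55.7 to 65.6 in NOD.Idd2, 59.4 to 74.9 in NOD). By fitted change, 9 of the 10 T cell genes (median log2 0.31) and 7 of the 8 natural killer cell genes (0.35) lay above 0. So did 6 of 8 plasmacytoid genes tested (0.17) and 6 of 11 red pulp macrophage genes (0.04). Below 0 lay 8 of the 10 B cell genes (-0.28) and all 4 tested platelet genes (-0.53). By edgeR's test 0 passed on each of these lists, against 1.29% of all genes. Klrd1 was most of the natural killer cell sum and Cd22 of the B cell sum. The 10 marginal zone B cell genes summed to 1071 to 1106 CPM in NOD.Idd2 and 1107 to 1179 CPM in NOD, without overlap and lower in NOD.Idd2, as Cadm1 was. Of these, 1 passed (Dtx1, which also stands on the type 2 list), against 1.29% of all genes, and their median log2 fold change was 0.00. The ratio of Cadm1 to Xcr1 was 36.7 ± 3.17 per 100 in NOD.Idd2 and 62.5 ± 6.76 in NOD. Whether all Cadm1 RNA came from type 1 cells is not known from these bulk libraries. The part of these other cells in the Cadm1 difference was not tested.

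Other genes of the type 1 cell were taken from a list that holds none of the 9 markers. Of 20 listed genes 18 could be tested in dendritic cells. By edgeR 0 passed, with 5 at an unadjusted p under 0.05, against 11.3% of all genes. By DESeq2 1 passed and by limma-voom 0. The fitted changes lay above 0 for 14 and below 0 for 4, with a median log2 fold change of 0.11, against 0.00 over all genes. The list's sum was 2667 to 2869 CPM in NOD.Idd2 and 2440 to 2723 CPM in NOD, with overlap. The lineage factor gene Irf8 was at 400 ± 13.6 CPM in NOD.Idd2 and 357 ± 50.2 in NOD dendritic cells (adjusted p = 0.459), and its partner Batf3 at 71.5 ± 2.08 CPM in NOD.Idd2 and 72.6 ± 7 CPM in NOD. Tlr3, the endosomal receptor for double-stranded RNA, was at 108 ± 10.5 CPM in NOD.Idd2 and 95.1 ± 4.49 in NOD. The thioesterase gene Ppt1 (723 ± 30.9 in NOD.Idd2, 679 ± 38.0 in NOD), the integrin gene Itgb7 (256 ± 6.17 in NOD.Idd2, 255 ± 4.45 in NOD) and the inhibitory receptor gene Btla (245 ± 12.8 in NOD.Idd2, 236 ± 7.99 in NOD) did not pass.

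On the list of the type 2 cell, 3 of 16 genes passed in dendritic cells by edgeR, 2 higher and 1 lower, against 1.29% of all genes. DESeq2 called 6 and limma-voom 4, and 10 were at an unadjusted p under 0.05, against 11.3% of all genes. Mgl2, a galactose-binding lectin gene, rose to 46.1 ± 4.16 CPM in NOD.Idd2, against 30.2 ± 0.907 in NOD (log2 0.63, SE 0.07, adjusted p = 0.00075). Ltb, which encodes lymphotoxin beta, rose to 263 ± 12.0 CPM in NOD.Idd2, against 201 ± 23.1 in NOD (log2 0.40, adjusted p = 0.0198), and the Notch regulator gene Dtx1 fell to 241 ± 9.20 CPM in NOD.Idd2, against 292 ± 3.13 in NOD (log2 -0.26, adjusted p = 0.0208). Mgl2 passed whichever library was left out, while Ltb and Dtx1 did not pass without NOD replicate 2 or without any 1 of the NOD.Idd2 libraries. The list of 12 general dendritic cell genes had 0 that passed by edgeR, DESeq2 or limma-voom (median log2 -0.06), where edgeR called 1.29% of all genes. At an unadjusted p under 0.05 there were 2 of these 12, against 11.3% of all genes.

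Genes that work with the markers in cross-presentation were read in the same way. Of 15 cross-presentation genes 0 passed in dendritic cells by edgeR, DESeq2 or limma-voom, with a median log2 fold change of -0.02. At an unadjusted p under 0.05 there were 4, against 11.3% of all genes. B2m, the light chain of class I molecules, was at 2013 ± 105 CPM in NOD.Idd2 and 2190 ± 107 in NOD, and Hsp90ab1, a cytosolic chaperone gene, at 1468 ± 103 in NOD.Idd2 and 1297 ± 255 in NOD. Rab43, a small GTPase gene of cross-presentation in mice, was at 39.4 ± 2.74 CPM in NOD.Idd2 and 44.8 ± 5.63 in NOD. The kinase gene Syk, which signals below Clec9a, was at 1089 ± 72.9 CPM in NOD.Idd2 and 1108 ± 149 in NOD. The aminopeptidase gene Lnpep was at 480 ± 28.2 CPM in NOD.Idd2 and 494 ± 28.9 in NOD.

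In B cells the markers that define the dendritic cell type were near the limit of detection. Xcr1 summed to 37 counts over the NOD.Idd2 B cell libraries and 45 over NOD, and Clec9a to 38 counts over NOD.Idd2 and 43 over NOD. Cadm1 had 15, 16 and 13 counts in NOD.Idd2 B cells and 48, 29 and 44 counts in NOD B cells, or 0.349 ± 0.0436 CPM in NOD.Idd2 and 0.931 ± 0.2 CPM in NOD. All 3 NOD.Idd2 libraries were below all 3 NOD libraries, as in dendritic cells. The log2 fold change was -1.41 (SE 0.25), and the edgeR adjusted p was 0.249 (unadjusted 0.000885). With the replicate number as a block in edgeR, it passed (log2 -1.40, SE 0.28, adjusted p = 0.0464). The labels state no pairing, however, and the numbers did not tell replicates 1 and 2 apart. Cadm1 also passed by DESeq2 (adjusted p = 0.0379) and in the fit of all 12 libraries (0.0229). Its adjusted p ranged from 0.0229 to 0.92 over 13 alternatives.

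The call on Cadm1 in B cells therefore depended on the fit. Its direction was the same in every fit, which adds no separate support, since the same libraries did not overlap between the strains. In the B cell libraries the monocyte and neutrophil genes summed to 13.4 to 18.5 CPM in NOD.Idd2 and 20.6 to 37.8 CPM in NOD, without overlap. All 8 tested had a fitted change below 0 (median log2 -0.84), with 0 passing by edgeR or limma-voom and 1 by DESeq2. At an unadjusted p under 0.05 there were 4, against 6.4% of all genes. Red pulp macrophage genes summed to 54.4 to 57.2 CPM in NOD.Idd2 and 48.3 to 53.8 CPM in NOD, also without overlap. Of these, 8 of the 11 tested nevertheless had a fitted change below 0 (median log2 -0.11). Natural killer cell genes summed to 17.8 to 28.5 CPM in NOD.Idd2 and 26 to 35.7 CPM in NOD, with overlap. All 8 of them had a fitted change below 0 (median log2 -0.45), with 0 passing by edgeR or limma-voom and 1 by DESeq2. At an unadjusted p under 0.05 there was 1, against 6.4% of all genes. The genes of the type 2 cell summed to 1106 to 1169 CPM in NOD.Idd2 and 1018 to 1033 CPM in NOD, without overlap. Most of that sum was Ltb (438 ± 15.7 CPM in NOD.Idd2, 349 ± 20.9 in NOD), Irf4 (341 ± 8.89 in NOD.Idd2, 334 ± 3.35 in NOD) and Dtx1 (290 ± 7.66 in NOD.Idd2, 275 ± 17.4 in NOD), which B cells also express. Its dendritic cell gene Sirpa was at 30.6 ± 2.31 CPM in NOD.Idd2 and 30.9 ± 1.82 in NOD, and Cd209a at 1.86 ± 0.438 in NOD.Idd2 and 1.77 ± 0.366 in NOD. The markers Xcr1 and Clec9a overlapped between the strains in B cells, with log2 fold changes of -0.24 (SE 0.42) for Xcr1 and -0.15 (SE 0.26) for Clec9a. In NOD B cells they summed to 45 and 43 counts, against 121 for Cadm1, and these errors are too wide to read a shift in either. The part of these lists, or of type 1 cells, in the Cadm1 difference in B cells was not tested.

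The other markers in B cells did not pass in either direction. Wdfy4 was at 1072, 1060 and 1144 CPM in NOD.Idd2 and 1036, 1022 and 1058 CPM in NOD B cells, all higher in NOD.Idd2 by a small margin (log2 0.07, SE 0.05, adjusted p = 0.862). Naaa was at 48.9 ± 2.39 CPM in NOD.Idd2 and 47.8 ± 1.74 in NOD, Cd36 at 188 ± 15.1 in NOD.Idd2 and 174 ± 13.9 in NOD, and Snx22 at 2.47 ± 0.226 in NOD.Idd2 and 1.90 ± 0.380 in NOD. Itgae varied within NOD.Idd2 B cells from 0.638 to 2.09 CPM, against 1.26 to 1.47 CPM in NOD. In all, 0 of 9 markers passed in B cells by edgeR's test, where 0.16% of 15011 genes passed, and 1 (Cadm1) had an unadjusted p under 0.05, against 6.4% of all genes. DESeq2 called 1 marker in B cells and limma-voom 0. The libraries did not overlap for Cadm1, which was lower, and Wdfy4, which was higher, where 12.8% of all genes did not overlap, 6.04% being lower and 6.8% higher.

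Cd8a in B cell libraries moved with Cd8b1, the chain with which it pairs on T cells. Cd8a was at 11.2, 3.55 and 5.84 CPM in NOD.Idd2 B cells and 5.01, 5.85 and 4.49 CPM in NOD B cells. Cd8b1 was at 6.09, 2.01 and 3.15 CPM in the same NOD.Idd2 libraries and at 2.76, 3.58 and 2.75 CPM in NOD. The highest and the lowest library were the same for both genes in NOD.Idd2. Per 100 Cd8a counts there were 3.49 ± 0.709 Cd8b1 counts in NOD.Idd2 and 2.59 ± 0.908 in NOD dendritic cells, and 55.0 ± 1.46 in NOD.Idd2 and 59.1 ± 3.49 in NOD B cells, so the chains stood in a different ratio in each cell type with no overlap. The 10 T cell genes, Cd8b1 among them and none at 0 in any group, summed to 91.8 to 146 CPM in NOD.Idd2 and 101 to 115 CPM in NOD B cells. Their part in the Cd8a level was not tested.

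Between the cell types all 9 markers passed in both strains, 8 higher and 1 lower in dendritic cells. Of all 16588 genes 75.7% passed in NOD.Idd2 (36.7% higher, 38.9% lower) and 76.4% in NOD (37.7% higher, 38.7% lower), so the calls say little about the markers and their sizes are given. The fold, dendritic cells over B cells, was 493 in NOD.Idd2 and 400 in NOD for Xcr1, and 465 in NOD.Idd2 and 390 in NOD for Clec9a. For Cadm1 the fold was 153 in NOD.Idd2 and 93.7 in NOD, and for Snx22 it was 46.6 in NOD.Idd2 and 58.3 in NOD. Folds were smaller for Cd8a (12.6 in NOD.Idd2, 16.4 in NOD), Itgae (9.18 in NOD.Idd2, 13.8 in NOD), Naaa (6.93 in NOD.Idd2, 6.54 in NOD) and Wdfy4 (2.45 in NOD.Idd2, 2.76 in NOD). Among the 6257 genes that were higher in NOD dendritic cells, Xcr1 ranked 185th and Clec9a 191st by fold, while Wdfy4 ranked 3230th. Both strains' comparisons rest on their own libraries but on 1 shared estimate of spread, with SE of log2 from 0.05 to 0.30.

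Cd36 was the exception. It was at 73.9 ± 6.45 CPM in NOD.Idd2 dendritic cells, against 188 ± 15.1 in NOD.Idd2 B cells (log2 -1.35, SE 0.11, adjusted p = 1.49e-07), and at 65.3 ± 10.4 CPM in NOD dendritic cells, against 174 ± 13.9 in NOD B cells (log2 -1.41, SE 0.11, adjusted p = 8.70e-08). No dendritic cell library reached a B cell library: the highest was at 80.9 CPM and the lowest B cell library at 158. Cd36 is also known as a marker of marginal zone B cells in mice. A list of 10 marginal zone genes that includes Cd36 summed to 1071 to 1106 CPM in NOD.Idd2 and 1107 to 1179 in NOD dendritic cells, and to 4920 to 5537 in NOD.Idd2 and 4989 to 5724 in NOD B cells. Most of the B cell sum was Cr2 (3695 ± 228 CPM in NOD.Idd2, 3763 ± 342 in NOD), which also stands on the list of B cell genes. By edgeR's test 8 of the 10 were lower in dendritic cells in NOD.Idd2 and 7 in NOD, against 38.9% and 38.7% of all genes. In each strain 2 were higher, against 36.7% of all genes in NOD.Idd2 and 37.7% in NOD. Platelet genes, from another cell that carries Cd36, summed to 55.7 to 74.9 CPM in dendritic cells and 138 to 152 CPM in B cells. Nearly all of that sum was the integrin gene Itgb3, at 57.1 ± 4.90 CPM in NOD.Idd2 dendritic cells against 142 ± 5.23 in NOD.Idd2 B cells, and 63.7 ± 6.05 in NOD dendritic cells against 147 ± 2.61 in NOD B cells. The platelet chemokine gene Pf4 was at 0.517 ± 0.185 CPM in NOD.Idd2 and 0.789 ± 0.787 in NOD dendritic cells, with 12 counts over the NOD.Idd2 and 15 over the NOD B cell libraries. The part of either list in the Cd36 level was not tested.

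Not every gene of the type 1 cell was higher in dendritic cells. Of the 18 other type 1 genes, 16 passed in NOD.Idd2, 14 higher and 2 lower, and 17 passed in NOD, 14 higher and 3 lower. Over all genes 75.7% passed in NOD.Idd2 (36.7% higher, 38.9% lower) and 76.4% in NOD (37.7% higher, 38.7% lower). Batf3 (71.5 ± 2.08 CPM in NOD.Idd2 dendritic cells, 13 counts over the NOD.Idd2 B cell libraries) was nearly absent from B cells. Irf8, which B cells also use, was lower in NOD dendritic cells at 357 ± 50.2 CPM, against 453 ± 7.80 in NOD B cells (log2 -0.34, adjusted p = 0.00164). In NOD.Idd2 it did not pass, at 400 ± 13.6 CPM in dendritic cells, against 448 ± 9.64 in B cells (log2 -0.16, adjusted p = 0.0775). Btla was at 236 ± 7.99 CPM in NOD dendritic cells, against 1078 ± 30.1 in NOD B cells.

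The difference of the strain effects, dendritic cells minus B cells, passed for 0 of the 9 markers by edgeR's test, as by DESeq2 and limma-voom, with 2 at an unadjusted p under 0.05 (Cadm1 and Wdfy4). Of 16588 genes 0.109% passed, and 8.22% had an unadjusted p under 0.05. For Cadm1 the difference was 0.70 on the log2 scale (SE 0.26, edgeR adjusted p = 0.488). A difference in the strain effect on Cadm1 between the cell types was therefore not shown. For Wdfy4 it was -0.17 (SE 0.07, adjusted p = 0.529).

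Crtam, the lymphocyte receptor that Cadm1 binds, did pass. It was at 0.813, 0.449 and 0.414 CPM in NOD.Idd2 B cells and 8.61, 7.71 and 6.52 CPM in NOD B cells (log2 -3.77, SE 0.27, adjusted p = 0.00295). In dendritic cells it was at 0.492 ± 0.115 CPM in NOD.Idd2 and 1.03 ± 0.249 CPM in NOD, and did not pass (log2 -1.04, SE 0.35, adjusted p = 0.239). Both genes were lower in NOD.Idd2 libraries, Cadm1 past the threshold in dendritic cells and Crtam in B cells. Cadm1 lies on chromosome 9 near Idd2. The position of Crtam relative to Idd2 and the B10 segment was not examined, so Crtam cannot be taken to lie away from the locus. A link between these changes was not tested. Crtam was the only one of the 10 tested ligand and partner genes to pass in B cells, where 0.16% of all genes passed. In dendritic cells 0 of 10 passed by edgeR, DESeq2 or limma-voom, with 2 at an unadjusted p under 0.05, against 11.3% of all genes. Xcl1, the ligand of Xcr1, was under 1 CPM in all 4 groups.

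Several genes near Cadm1 on chromosome 9 differed between the strains. Within 1 Mb of Cadm1, 8 of 13 genes in the table were tested in dendritic cells and 5 passed, 4 higher and 1 lower in NOD.Idd2. Of all genes 1.29% passed in dendritic cells. Those higher all lay after Cadm1: Nxpe4 (304 kb away, log2 4.85), Nxpe2 (460 kb, 3.36), the pseudogene Nxpe1-ps (561 kb, 1.67) and Zbtb16 (797 kb, 3.22). Nxpe4 was at 83.2 ± 2.27 CPM in NOD.Idd2, against 2.92 ± 0.429 in NOD. The span of Nxpe4 covers Nxpe2 on the opposite strand, and related Nxpe copies can share reads, so their single levels are uncertain. Zbtb16, which encodes the transcription factor PLZF, was at 5.75 ± 0.971 CPM in NOD.Idd2, against 0.609 ± 0.297 in NOD.

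The gene that was lower, 2900052N01Rik (chr9:46913493-46927366, plus strand), has a provisional symbol and was named after its values were seen. It lies 603 kb before Cadm1 and was at 146 ± 6.41 CPM in NOD.Idd2 dendritic cells, against 249 ± 23.8 in NOD (log2 -0.76, SE 0.07, adjusted p = 0.000159), a fold of 0.592 beside 0.619 for Cadm1. Rexo2 (log2 0.20), Rbm7 (-0.12) and Gm5617 (0.01), between the Nxpe genes and Zbtb16, did not pass. In B cells 7 genes of the window were tested and 3 passed, against 0.16% of all genes. All were higher: Nxpe4 (log2 2.87), Nxpe2 (2.59) and Nxpe1-ps (1.65). Nxpe4 in B cells did not pass when any 1 of the 6 libraries was left out.

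**Figure D4:**
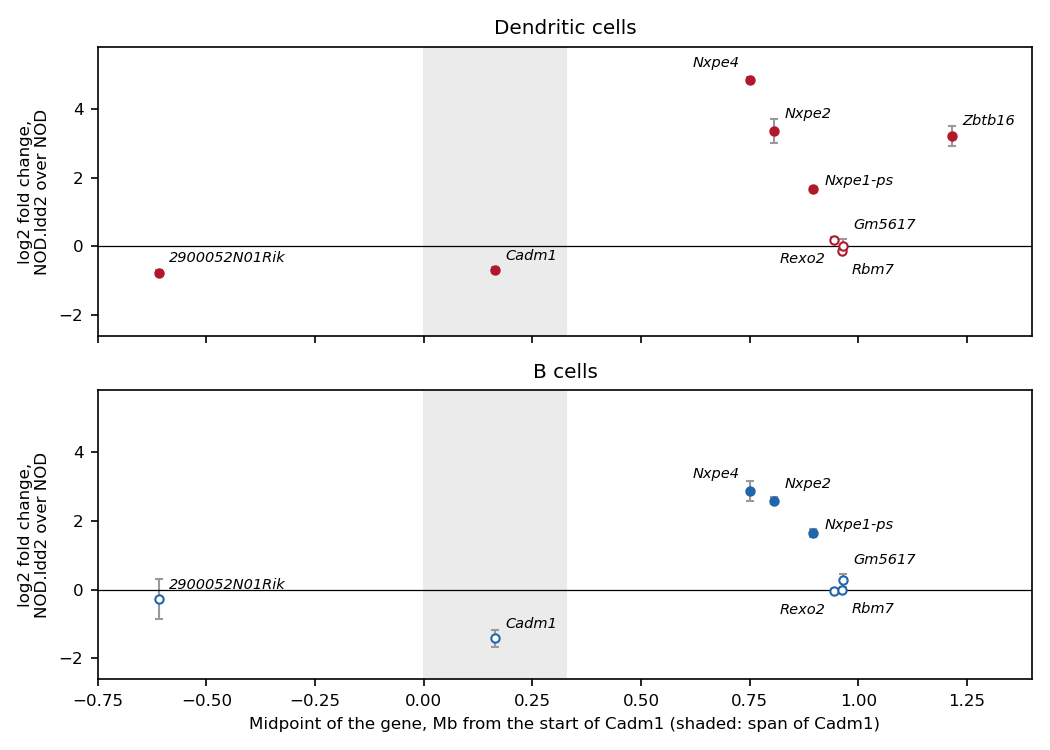
Log2 fold change, NOD.Idd2 over NOD, of tested genes within 1 Mb of Cadm1 against the distance of each gene's midpoint from the start of Cadm1, in dendritic cells (top) and B cells (bottom), with bars of 1 SE; filled points passed. In dendritic cells Cadm1 (-0.69) and 2900052N01Rik (-0.76) lie below 0 and Nxpe4 (4.85), Nxpe2 (3.36), Nxpe1-ps (1.67) and Zbtb16 (3.22) above it.

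Around Snx22, which also lies on chromosome 9, no gene passed edgeR's test. Within 1 Mb of Snx22, edgeR called 0 of 28 tested genes in dendritic cells (5 at an unadjusted p under 0.05, 1 by DESeq2, 0 by limma-voom) and 0 of 30 in B cells (2 unadjusted, 0 by the other tools). Of all genes 11.3% in dendritic cells and 6.4% in B cells had an unadjusted p under 0.05.

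Over the 12 libraries, the genes whose profile was closest to Xcr1 were ranked by the root mean square difference of centred log2 CPM, among 11537 genes. The closest were Ifi205 (0.141), Gpr141 (0.148), Tifab (0.170), Shtn1 (0.171) and Nlrp3 (0.174). Clec9a followed as the 6th (0.179). The next marker, Cadm1, was 196th (0.841), then Snx22 (256th, 1.05), Cd8a (595th), Itgae (804th), Naaa (945th) and Wdfy4 (1764th), and Cd36 was 10453rd. The measure mainly reads the difference between the cell types, which is also one of sex, and is given as a description. Ifi205 has close relatives in its gene family, so its counts are uncertain. It was at 153 ± 14.5 CPM in NOD.Idd2 and 133 ± 13.3 in NOD dendritic cells.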

How the data were processed

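Per the labels' protocols, Trizol was used for RNA and a KAPA HyperPrep kit for the poly(A)-selected libraries. STAR (its version given as 0.12.2) and the build GRCm38 are named in the submitters' processing notes. No counting tool, annotation or strand setting is stated there. The authors deposited raw counts, whole numbers per gene symbol, which were used, and a normalized table, which was not.

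CPM and tests were computed in edgeR 4.0.16 under R 4.3.3 with TMM scaling. The filter was filterByExpr (minimum count 10, minimum total 15). For each cell type, NOD.Idd2 was tested against NOD on 6 libraries with edgeR's quasi-likelihood test, adjusted by Benjamini-Hochberg over all tested genes, at 0.05. All 12 libraries were fitted as 4 groups for the difference of strain effects and for dendritic cells against B cells. Groups came from the sample titles. SE is the absolute log2 fold change over the square root of the F statistic. Alternatives were DESeq2 1.42.0, limma-voom (limma 3.58.1), RLE size factors, no filter, a filter at 1 CPM in 3 libraries, the replicate number as a block, other sets of libraries in the fit, and leaving out each library. Dropping the B cell libraries numbered 3 together was chosen after seeing the data. The fits were tested on simulated data.

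Positions and exon lengths came from GENCODE vM21 on GRCm38, which matched 27736 of 28188 symbols and all 9 markers, and promoters from RefSeq on GRCm38.p6. The likeness used log2 of CPM plus 0.5 over genes with a mean of at least 1 CPM. The markers and gene lists were chosen with earlier results of these data known. All 9 markers are named, with passing genes of the other lists and of 1 Mb windows, up to 4 further list members by level in NOD dendritic cells, and the 5 genes closest to Xcr1. Genes named outside this rule were chosen after their values were seen. The window around Xcr1 is not reported here.

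Both strains carry replicate numbers 1 to 3. Same-numbered libraries deviated together from their group means, with correlations of 0.519, 0.326 and 0.753 in B cells. These were above 0.1 for every pair, so the numbers were taken to pair the B cell libraries in the block. NOD.Idd2 replicate 1 also correlated at 0.395 with NOD replicate 2, and NOD.Idd2 replicate 2 at 0.355 with NOD replicate 1. Both exceeded the 0.326 of the libraries numbered 2. The numbers thus set replicate 3 apart but did not tell replicates 1 and 2 apart. The labels state no pairing.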

Additional observations from a re-analysis of the deposited data

Results flagged for a closer look

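For 2 genes named beside the markers, the strain effect in dendritic cells differed from that in B cells by a test of the difference itself, in edgeR's quasi-likelihood fit of all 12 libraries. For Crtam, which encodes the receptor that Cadm1 binds, the difference was 2.71 on the log2 scale (SE 0.43, adjusted p = 0.0398), with all 3 NOD.Idd2 libraries below all 3 NOD libraries in each cell type. It did not pass by limma-voom (adjusted p = 0.094), and its adjusted p ran from 2.46e-05 to 0.236 over 19 alternatives, of which 8 passed. For Nxpe4, which lies 304 kb after Cadm1, the difference was 1.96 (SE 0.30, adjusted p = 0.0388), with NOD.Idd2 higher in all 3 libraries of each cell type. The level of Nxpe4 in B cells was low, with 204 counts over the NOD.Idd2 libraries and 28 over the NOD libraries, and its span covers Nxpe2.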

How the results depend on the processing

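Cadm1 in dendritic cells and all 9 differences between the cell types kept their direction and call under every alternative run. The number of markers that passed in dendritic cells was 1, and it was 2 without a filter on low counts and 1 to 2 with each library left out, the second being Itgae. Of all genes, 186 passed in dendritic cells, 296 by DESeq2, 700 without a filter, 94 in the fit of all 12 libraries and 63 to 332 with each library left out. In B cells 0 markers passed, and 1 (Cadm1) passed by DESeq2 and 1 in the fit of all 12 libraries. With each library left out 0 passed. Of all genes 24 passed in B cells, 122 by DESeq2, 42 in the fit of all 12 libraries, 46 without both replicate 3 libraries and 13 to 18 with each library left out. For the difference of strain effects 18 genes passed, 114 by DESeq2, 33 without a filter and 7 to 19 with each library left out. The cause of these shifts was not tested.

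With the replicate number as a block, 1 marker (Cadm1) and 156 genes passed in B cells, and 56 genes for the difference of strain effects. The numbers did not pair the dendritic cell libraries, whose same-numbered pairs correlated at 0.012, 0.0141 and 0.0612, and 214 genes passed there with the block. The block changed no other call on a marker.

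Uncalled values changed sign on leaving out a library. In dendritic cells the log2 fold change ran from -0.01 to 0.12 for Cd8a, -0.10 to 0.09 for Syk (0.03 without NOD.Idd2 replicate 3) and -0.05 to 0.02 for Lnpep. In B cells it ran from -0.45 to 0.09 for Xcr1, -0.18 to 0.51 for Itgae, -0.12 to 0.73 for Cd8a, -0.00 to 0.07 for Naaa and -0.71 to 0.20 for 2900052N01Rik. Itgae in B cells was at -0.02 by limma-voom. Without both replicate 3 libraries Itgae was at -0.02, Naaa at -0.00 and 2900052N01Rik at 0.22. The difference of strain effects ran from -0.04 to 0.51 for Xcr1, -0.69 to 0.16 for Cd8a and -0.03 to 0.18 for Cd36. Cadm1, Xcr1 and Clec9a were not tested in B cells under the 1 CPM filter. Depth limits Xcr1, Clec9a and Cadm1 in B cells, where each rests on 37 to 121 counts per group.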
